A study of Mus musculus with 2 samples.

Results

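Endothelial cells line blood and lymphatic vessels. A set of 36 genes of this lineage, spanning the vessel wall, receptors, ligands and transcription factors, was read in RNA-seq libraries of teratomas, and all 36 were found by symbol among the 45777 genes of the deposited table. Teratomas were raised by subcutaneous inoculation of ESCs in Matrigel into BALB/c-nu mice, immunodeficient hosts, and harvested 14 days later. The E14 group came from the mouse ESC line E14, which is wild type for Sox2. The E14-Sox2TA/WT group came from E14 cells in which CRISPR-Cas9 editing had turned threonine 258 of Sox2 into alanine (T258A) on 1 allele, selected as clones grown from single cells. There was 1 library per group, and the sources do not say whether it held 1 teratoma or several. No difference below thus has a replicate check in these libraries, and no p-value was computed. The study also measured marker genes in teratomas by qPCR with replicates, Sox17, Afp, Foxa2 and Tubb3 among them. It reported mesendodermal markers as higher and ectodermal markers as lower in E14-Sox2TA/WT teratomas.

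Vessels form when endothelial precursors assemble into tubes and then sprout. VEGF-A drives sprouting through the receptor Kdr, while Flt1 binds the same ligand and restrains it. The receptor Tek is activated by Angpt1, and Angpt2 mostly opposes this. Transcription factors of the ETS family, among them Erg, Fli1 and Ets1, keep the endothelial program on, and Prox1 directs the lymphatic branch. In a teratoma, vessels may derive from the graft or grow in from the host. Both are mouse cells here, and the counts per gene do not separate them.

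The depth was alike, with 50529171 gene reads for E14 and 49030281 for E14-Sox2TA/WT. Sox2 itself had 14585 and 8623 reads, and counts per gene do not show the T258A change. Levels are given as TPM, which scales reads by transcript length and library, so that genes can be compared with each other. Ratios are E14-Sox2TA/WT over E14, or the reverse where a gene is called lower, and each is followed by a 95% interval that follows from its reads by the Clopper-Pearson method. Such an interval holds counting error alone and sets 1 library against another, not the conditions. In bulk tissue, fewer cells of a type and less RNA per cell cannot be told apart. The libraries differed in other ways, whose bearing on the members was not tested. The 4 Y-linked genes Eif2s3y, Ddx3y, Uty and Kdm5d together had 5453 reads in E14 and 0 in E14-Sox2TA/WT, where a count of 0 allows up to 3 reads. Xist stood at a TPM of 1.64 and 5.50.

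The summed TPM of the endothelial genes was nearly the same in both libraries, at 472 (E14) and 454 (E14-Sox2TA/WT). This sum holds opposite moves of single genes, with S1pr1 at 51.3 and 8.91 and Egfl7 at 19.3 and 43.6. Of the sum, 248 (E14) and 200 (E14-Sox2TA/WT) came from 10 members also known from other cell types, which are named further below. The 12 vessel wall and junction members alone summed to 233 and 259. Of the 36 members, 35 reached a TPM of 1 in either library. Over these the log2 ratio, after adding 1 to both TPM values, had a median of 0.08, against -0.06 over the 18558 genes that passed the same filter. Of the 35 members, 23 (65.7%) were higher in the E14-Sox2TA/WT library, against 47.5% of all genes, and 24 (68.6%) lay within 1.5-fold in either direction, against 42.1% of all genes. The 16 members that reached a TPM of 10 in either library had a median of -0.02, against -0.18 for all genes that did. Scaling reads by library total instead moved the median of all genes by 0.18 on the log2 scale, and that of the members to 0.23.

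By the fold rule of the study's methods, a ratio above 2 where either library reaches a TPM of 10, 2 of these 16 members were called higher, Egfl7 and Aplnr, where 10.8% of all genes were. S1pr1 and Prox1, or 2 of 16, were called lower, where 18.7% of all genes were. In counts, 1253 of 11578 genes were called higher and 2167 lower. The study reported fewer genes in each direction for its teratomas, so its own calls were not reproduced here. With the TPM minimum set to 1, Tek, Sox17 and Lyve1 were also more than 2-fold higher, so that 5 of 35 members were higher against 19.3% of all genes. Tal1 and Angpt2 were then also lower, giving 4 of 35 members against 18.9% of all genes. The counting interval included an equal level for 10 members, lay above it for 16 and below it for 10. The matching shares over all genes were not computed, so these counts show nothing particular to the members.

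**Figure D1:**
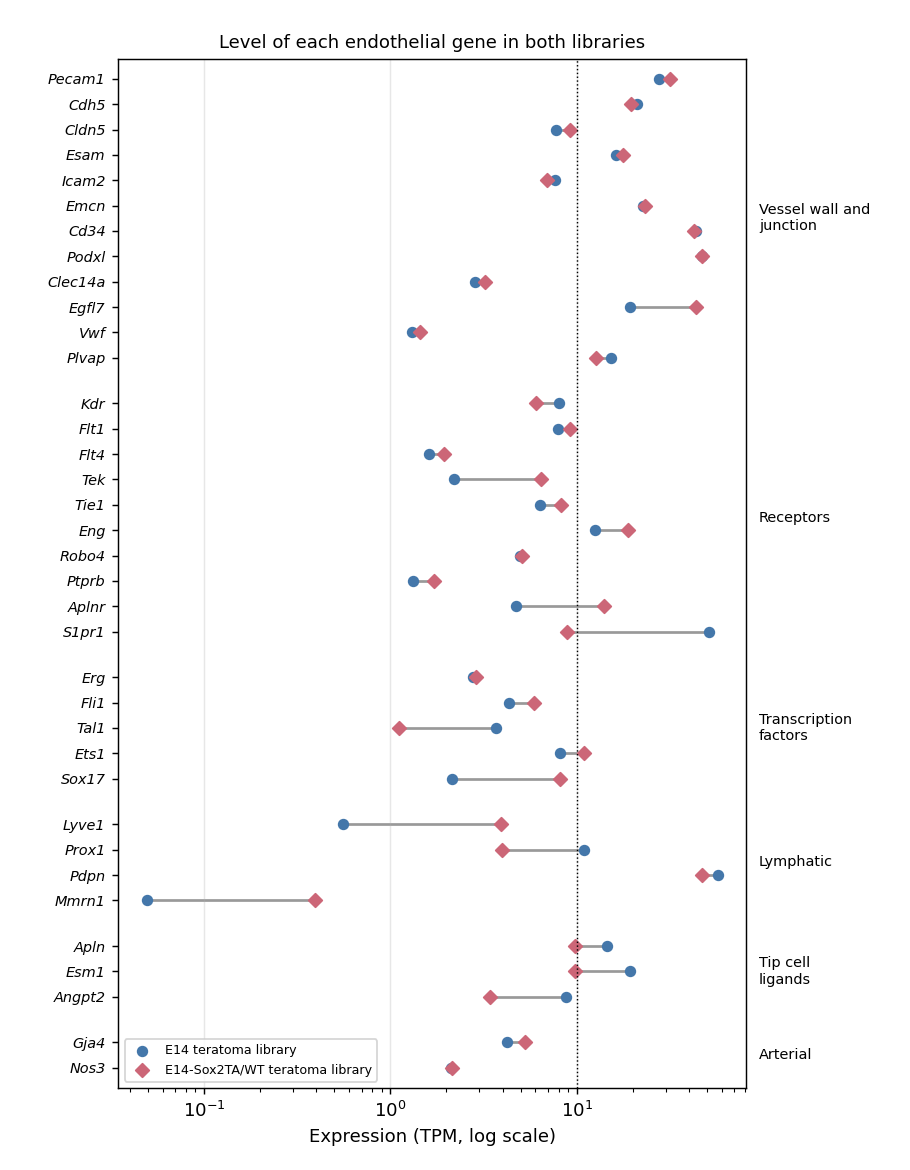
TPM on a log scale for each of the 36 endothelial genes, grouped by role, with circles for the E14 teratoma library and diamonds for the E14-Sox2TA/WT teratoma library (1 library each). The dotted line marks a TPM of 10. Most pairs of symbols nearly coincide, while S1pr1, Prox1, Tal1 and Angpt2 were lower and Mmrn1, Lyve1, Sox17, Tek, Aplnr and Egfl7 higher in the E14-Sox2TA/WT library.

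The order of the levels was also much alike. Across the 36 genes, Spearman's rho between the libraries was 0.84, a description over genes that share both libraries. In the E14 library the highest members were Pdpn (TPM 57.0), S1pr1 (51.3), Podxl (47.1), Cd34 (43.8) and Pecam1 (27.6). In the E14-Sox2TA/WT library they were Podxl (47.1), Pdpn (47.1), Egfl7 (43.6), Cd34 (42.4) and Pecam1 (31.6). The second place of S1pr1 thus went to a rank of 17, and Egfl7 went from rank 9 to rank 3. Mmrn1 was the lowest member in both libraries. At this depth only Lyve1 and Mmrn1 had under 100 reads in a library.

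For a member called higher, a member called lower and a vessel gene at nearly equal levels, the 250 bases before an annotated transcription start are shown from RefSeq (GRCm38.p6, the build mm10 of the files). Start sites were held for 20 of the 36 members, 26 promoters in all. Capitals mark AGGAAG or its reverse complement CTTCCT, a common form of the site bound by ETS factors, and CATTGT or its reverse complement ACAATG, a common form of the site bound by Sox factors. The motifs share no overlap in the sequences shown. Egfl7, called higher, has 3 listed starts. Its first promoter lies on the plus strand at chr2:26580833-26581082 and its second at chr2:26583615-26583864, and the third, at chr2:26586386-26586635, is not printed and holds 0 matches to either motif. The promoter of Emcn, at nearly equal levels, lies on the plus strand at chr3:137340828-137341077. The upstream promoter of Prox1, called lower, lies on the minus strand at chr1:190170828-190171077.
Egfl7, first start: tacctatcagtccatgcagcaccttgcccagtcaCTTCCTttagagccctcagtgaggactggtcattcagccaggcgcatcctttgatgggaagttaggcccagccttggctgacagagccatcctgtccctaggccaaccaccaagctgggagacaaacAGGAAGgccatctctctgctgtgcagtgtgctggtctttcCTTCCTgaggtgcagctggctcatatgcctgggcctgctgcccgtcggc
Egfl7, second start: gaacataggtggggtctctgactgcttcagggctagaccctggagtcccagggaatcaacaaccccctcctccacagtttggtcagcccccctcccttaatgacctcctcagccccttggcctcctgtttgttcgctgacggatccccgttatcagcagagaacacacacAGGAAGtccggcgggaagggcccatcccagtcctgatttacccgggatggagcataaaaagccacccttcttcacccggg
Emcn: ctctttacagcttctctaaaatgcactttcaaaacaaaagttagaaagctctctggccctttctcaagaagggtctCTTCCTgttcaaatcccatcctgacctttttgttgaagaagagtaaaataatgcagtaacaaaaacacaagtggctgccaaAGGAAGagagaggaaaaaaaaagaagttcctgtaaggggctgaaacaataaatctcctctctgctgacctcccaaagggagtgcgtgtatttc
Prox1: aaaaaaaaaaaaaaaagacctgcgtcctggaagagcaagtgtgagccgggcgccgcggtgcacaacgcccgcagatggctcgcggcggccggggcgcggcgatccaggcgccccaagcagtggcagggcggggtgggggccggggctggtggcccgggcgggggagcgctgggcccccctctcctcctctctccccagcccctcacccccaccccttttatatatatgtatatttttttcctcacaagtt
The first Egfl7 promoter holds 3 matches to the ETS letters, the second holds 1, Emcn holds 2, and Prox1 holds 0. Over all members, 10 of 26 promoters (38.5%) held the ETS letters on either strand, against 29.5% of 32851 promoters of the same length. The Sox letters were in 2 of 26 (7.69%), those of Erg and Mmrn1, against 10.7% of all. A match is only an occurrence of letters, and these counts were not tested.

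The genes of the vessel wall and of endothelial junctions were for the most part even. Of 12 genes, 11 lay within 1.5-fold, with a median log2 ratio of 0.06. Pecam1 (CD31), an adhesion molecule at contacts between endothelial cells, stood at 27.6 TPM in E14 and 31.6 TPM in E14-Sox2TA/WT teratomas, a ratio of 1.14 (1.08 to 1.21). Cdh5 (VE-cadherin), the cadherin of endothelial adherens junctions, stood at 21.1 and 19.5 (0.924, 0.869 to 0.983). These 2 defining markers thus differed by less than 1.5-fold, and in opposite directions on the TPM scale. With reads scaled by library total, the log2 ratio of Cdh5 was 0.09, and relative to genes of similar length it was 0.15. Both have the same sign as for Pecam1.

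Emcn, a sialomucin of venous and capillary endothelium, had a TPM of 22.6 and 23.2, and Cd34, a sialomucin of endothelial and blood progenitor cells, had 43.8 and 42.4. Podxl, an anti-adhesive sialomucin, was at 47.1 in both. For these 3 the interval included an equal level. Esam and Icam2, adhesion molecules of endothelial cells, had a TPM of 16.2 and 17.8, and of 7.62 and 6.93. Cldn5, the main claudin of endothelial tight junctions, was at 7.77 and 9.25 (1.19, 1.01 to 1.40). Clec14a, a membrane protein of sprouting endothelium, was at 2.83 and 3.20. Vwf, the clotting protein stored in endothelial Weibel-Palade bodies, was at 1.31 and 1.44. Plvap, the protein of the diaphragms of fenestrae, was slightly lower, at 15.3 and 12.8 (0.831, 0.749 to 0.923).

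Egfl7, a secreted factor that guides vessel tube formation and hosts the microRNA miR-126 in its introns, was the exception in this group. It lies on chromosome 2 from 26581083 to 26592682. It had 625 reads in E14 and 1555 in E14-Sox2TA/WT, or a TPM of 19.3 and 43.6, and was 2.26-fold higher (2.06 to 2.49). Relative to the median of its group, its log2 ratio was 1.08.

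Some of these genes are also transcribed outside vessels, and marker lists of such cells moved between the libraries. Pecam1 and Podxl are also known from pluripotent cells. All 10 pluripotent cell genes were called higher in the E14-Sox2TA/WT library by the fold rule, where 10.8% of all genes were. Their summed TPM went from 85.4 to 1994, with Pou5f1 at 19.0 and 304, Nanog at 8.37 and 116, Dppa4 at 2.06 and 54.6 and Dppa5a at 29.1 and 1144. Cd34 and Vwf are also known from blood progenitors and platelets, and of 7 platelet and megakaryocyte genes, 5 reached a TPM of 1 and 4 of these were higher, among them Pf4 at 11.7 and 40.5 and Ppbp at 0.0767 and 5.31, with Gp1bb at 6.41 and 3.93. The summed TPM of that list was 20.6 and 55.2, and its defining gene Gp9 had 0 reads in both libraries. The part of these cells in the levels of Pecam1, Podxl, Cd34 and Vwf was not tested.

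**Figure D2:**
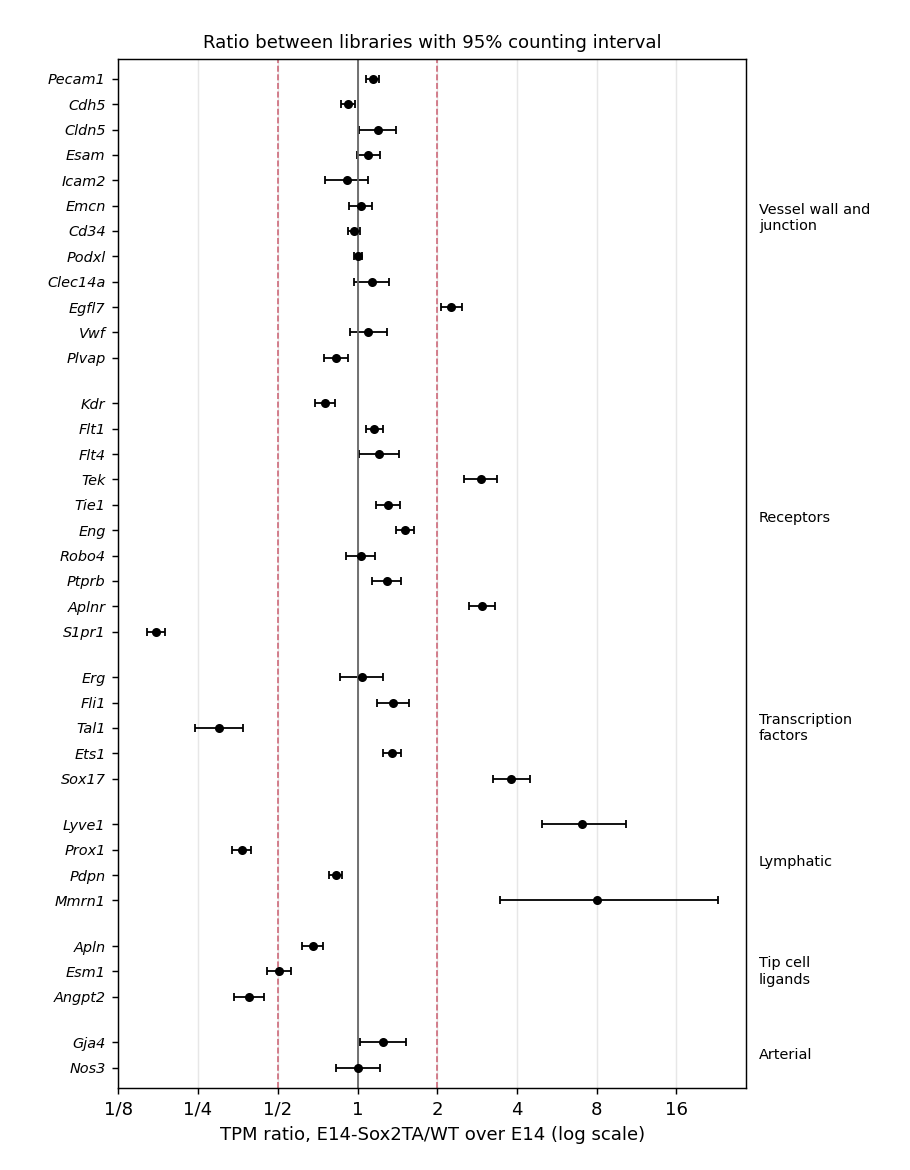
Ratio of TPM, E14-Sox2TA/WT over E14, on a log scale for each endothelial gene, with bars for the 95% counting interval and dashed lines at a 2-fold difference in either direction. Genes of the vessel wall cluster around a ratio of 1 apart from Egfl7, while receptors, transcription factors and lymphatic genes spread further, from S1pr1 at 0.174 to Mmrn1 at 8.02.

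Among the 10 receptors, 6 lay within 1.5-fold and 8 were higher. The median of their log2 ratios was 0.20, or 0.36 with reads scaled by library total and 0.66 relative to genes of similar length. Kdr, the main signaling receptor for VEGF-A, was at a TPM of 7.98 and 6.01 (0.753, 0.690 to 0.821). Flt1, the VEGF-A receptor that acts largely as a decoy, was at 7.91 and 9.15 (1.16, 1.07 to 1.25). The TPM of Flt1 divided by that of Kdr was 0.990 in E14 and 1.52 in E14-Sox2TA/WT. Flt4, the receptor for VEGF-C and VEGF-D on lymphatic vessels, was at 1.60 and 1.93 (1.20, 1.01 to 1.44). All 3 VEGF receptors thus differed by less than 1.5-fold.

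Tek (Tie2), the angiopoietin receptor, had 258 reads in E14 and 814 in E14-Sox2TA/WT, or a TPM of 2.21 and 6.44, and was 2.92-fold higher (2.53 to 3.37). It stayed below the TPM minimum of the fold rule. Tie1, its partner receptor, was at 6.32 and 8.22 (1.30, 1.17 to 1.45), and Ptprb (VE-PTP), the phosphatase that acts on Tek, was at 1.33 and 1.71 (1.29, 1.13 to 1.46). Eng, a co-receptor for BMP ligands on endothelium, was at 12.5 and 18.8, a ratio of 1.51 (1.39 to 1.63), and its partner Acvrl1, outside the 36, was at 3.18 and 6.42. Robo4, an endothelial Robo receptor that stabilises vessels, was level at 4.95 and 5.08. Tek thus stood apart from its partners by the size of its difference.

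Aplnr, the apelin receptor, marks venous and sprouting endothelium and early mesoderm, and lies on chromosome 2 from 85136360 to 85139923. It had 406 reads in E14 and 1341 in E14-Sox2TA/WT, or a TPM of 4.73 and 13.99, and was 2.96-fold higher (2.64 to 3.31). S1pr1, the sphingosine-1-phosphate receptor that stabilises vessels, went the other way. It lies on chromosome 3 from 115710433 to 115715055 and had 3737 and 725 reads, or a TPM of 51.3 and 8.91, and was 5.76-fold lower (5.31 to 6.24), the largest decrease among the 36.

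S1pr1 is also known from neural progenitors and astrocytes. All 12 genes of a neural list, assembled after the values were seen, were lower in the E14-Sox2TA/WT library, with a summed TPM of 5324 and 1169. By mean TPM the highest were Fabp7, at 2497 and 708, Tubb3, at 1722 and 170, and Slc1a3, a transporter of radial glia and astrocytes, at 262 and 76.5. Mapt was at 265 and 18.2. The part of neural cells in the level of S1pr1 was not tested. Other genes of endothelium varied, with Cdh5 and Pecam1 at ratios of 0.924 and 1.14, and Angpt2 and Vcam1 at 0.389 and 0.213.

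The ligands of these receptors were read as well. The 3 members expressed by sprouting tip cells were each lower in the E14-Sox2TA/WT library on every scale tried, with a median log2 ratio of -0.92. Angpt2, a destabilising angiopoietin, had 752 and 327 reads, or a TPM of 8.77 and 3.42, and was 2.57-fold lower (2.25 to 2.93). Esm1 (endocan), a proteoglycan secreted by tip cells, was at 19.3 and 9.76, or 1.98-fold lower (1.78 to 2.201), just inside the 2-fold limit. Apln, the apelin peptide, was at 14.4 and 9.80, or 1.47-fold lower (1.35 to 1.62).

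For Angpt2 and Apln, the order of ligand and receptor differed between the libraries. Angpt2 stood at 3.97 times the TPM of Tek in E14 and at 0.531 times in E14-Sox2TA/WT. Angpt1, the activating ligand made by cells around the vessel, was at 5.71 and 6.28, so that Angpt2 stood at 1.54 and 0.544 times Angpt1. Apln stood at 3.05 times Aplnr in E14 and at 0.700 times in E14-Sox2TA/WT, while Apela, the other ligand of Aplnr and a peptide also made by pluripotent cells, was at 37.5 and 35.9. Angpt2 was thus above Tek and Angpt1, and Apln above Aplnr, in E14 teratomas and below them in E14-Sox2TA/WT teratomas, while Apela was above Aplnr in both.

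Of the 15 ligands and co-receptors listed, 14 were found by symbol, 12 reached a TPM of 1, 5 of these were higher and 7 lower, and the median log2 ratio was -0.12. The direction of this list depended on the scale, with 7 higher and 5 lower and a median of 0.068 with FPKM and 0.057 with library totals. Vegfa was at 103 and 47.1, or 2.19-fold lower (2.11 to 2.28). Its TPM was 12.9 times that of Kdr in E14 and 7.83 times in E14-Sox2TA/WT. Vegfb was at 45.8 and 31.1. Nrp2, a co-receptor shared by VEGF-C and semaphorins, was at 49.9 and 24.1, and Vegfd, a lymphatic growth factor, was at 0.882 and 3.41 (3.87, 2.72 to 5.64). Of the 6 that reached a TPM of 10, Vegfa and Nrp2 were called lower by the fold rule, where 18.7% of all genes were. None of the 6 was called higher, where 10.8% of all genes were. Vegfa and Nrp2 are also transcribed in neural tissue, whose list was lower as given above.

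**Figure D3:**
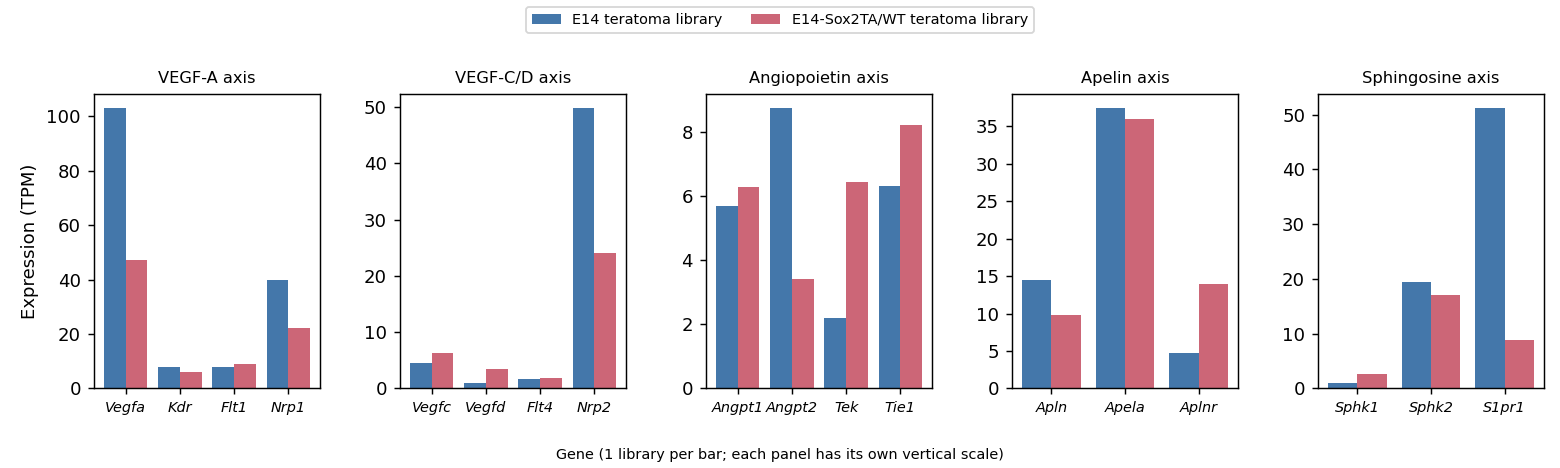
TPM of ligands and receptors in 5 signaling axes of vessels, with 1 bar per library (E14 left, E14-Sox2TA/WT right) and a separate linear scale from 0 in each panel. Angpt2 and Apln were lower and Tek and Aplnr higher in the E14-Sox2TA/WT library, Vegfa went from 103 to 47.1 and S1pr1 from 51.3 to 8.91.

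The 5 transcription factors divided. Erg, an ETS factor largely restricted to endothelium within vessels, was level at a TPM of 2.78 and 2.88 (1.04, 0.858 to 1.25). Fli1 and Ets1, ETS factors of endothelium and blood cells, were at 4.35 and 5.91 (1.36, 1.18 to 1.56) and at 8.12 and 10.9 (1.35, 1.24 to 1.46). The ETS members thus lay within 1.5-fold. Sox17, a factor of arterial endothelium and of endoderm, had 199 and 800 reads, or a TPM of 2.15 and 8.16, and was 3.80-fold higher (3.25 to 4.47). Tal1 (Scl), a factor of blood and endothelial precursors, had 376 and 119 reads, or a TPM of 3.70 and 1.11, and was 3.32-fold lower (2.70 to 4.12).

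Of 10 endoderm genes, 9 were higher in the E14-Sox2TA/WT library, with a summed TPM of 158 and 468, with Afp at 0.614 and 151, Ttr at 1.32 and 41.1, Foxa2 at 35.3 and 57.2 and Epcam at 64.6 and 72.4. The part of endoderm in the level of Sox17 was not tested. Its relatives of the SoxF group, which are expressed in endothelium too, were at 9.15 and 10.5 for Sox18 and at 2.11 and 6.58 for Sox7. Tal1 is also known from erythroid cells and from neurons of the brain stem and spinal cord. The 7 erythroid genes had a summed TPM of 268 and 262, with Hbb-bs at 141 and 162, Hba-a1 at 122 and 96.5 and Epor at 2.22 and 1.61. Of the erythroid factors in that list, Gata1 had 3 and 11 reads and Klf1 had 35 and 15. The neural list is given above. The part of erythroid and neural cells in the level of Tal1 was not tested.

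Of 16 further vascular transcription factors, 11 were higher and 5 lower, with a median log2 ratio of 0.35. Klf2, induced by flow in endothelium and also a pluripotency factor, was at 6.44 and 53.5 (8.31, 7.34 to 9.43). Gata6, a factor of endoderm and smooth muscle, was at 0.718 and 6.96. Ets2 was at 22.5 and 21.3, and Lmo2, a partner of Tal1, was at 18.8 and 14.4.

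The lymphatic members did not move as a group. Lyve1, a hyaluronan receptor of lymphatic endothelium, had 35 reads in E14 and 276 in E14-Sox2TA/WT, or a TPM of 0.556 and 3.93, and was 7.06-fold higher (4.96 to 10.3). Mmrn1, a secreted protein of lymphatic endothelium and platelets, had 6 and 50 reads, for a ratio of 8.02 (3.44 to 22.9), at a TPM under 1 in both. Both were low in the E14 library.

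Prox1, the factor that specifies lymphatic endothelium, went the other way. It lies on chromosome 1 from 190118035 to 190170827 and had 2101 and 851 reads, or a TPM of 10.9 and 3.99, and was 2.74-fold lower (2.53 to 2.97). Its transcript is among the longest, and relative to genes of similar length its log2 ratio was -0.70, short of a 2-fold difference, against -1.26 without that correction. Pdpn, a sialomucin of lymphatic endothelium and of many stromal and epithelial cells, was at 57.0 and 47.1 (0.826, 0.780 to 0.874). Flt4, the lymphatic VEGF receptor, was within 1.5-fold as given above. The 5 genes thus held 2 that were higher by more than 2-fold, 1 lower, and 2 within 1.5-fold.

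Lyve1 and Mmrn1 are not restricted to lymphatic vessels. Lyve1 is also a marker of a class of tissue macrophages. All 12 macrophage genes were higher on every scale tried. Their median log2 ratio was 0.52, at a summed TPM of 863 and 1519. Among them, Lyz2 was at 457 and 943, C1qa at 150 and 215, C1qb at 121 and 155, Mrc1, a marker of the same resident macrophages, at 8.42 and 20.7, and Cd163, another such marker, at 0.114 and 2.70 (23.8, 13.7 to 45.1). Prox1 is also transcribed in neural progenitors and in liver, whose neural and endoderm lists are given above. The part of these cells in the levels of Lyve1, Mmrn1 and Prox1 was not tested.

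Both arterial members were within 1.5-fold. Gja4 (connexin 37), a gap junction protein of arterial endothelium, was at a TPM of 4.24 and 5.29 (1.25, 1.02 to 1.53), and Nos3, the endothelial nitric oxide synthase, was at 2.12 and 2.13. Of 15 genes of arterial and venous identity, which include Aplnr, 8 were higher and 7 lower. The venous factor Nr2f2 was at 45.5 and 23.2, Cxcr4 at 93.1 and 51.0, the Notch targets Hey1 and Hey2 at 54.2 and 46.1 and at 13.5 and 4.35, and the arterial connexin gene Gja5 at 1.03 and 3.69. The list thus went neither way as a whole. Several of its genes, Hey1, Hey2, Cxcr4 and Nr2f2 among them, are also transcribed in neural tissue.

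Endothelial genes outside the 36 were read in the same way. Of 24 such genes, with a summed TPM of 288 and 208, 21 reached a TPM of 1, 15 of these lay within 1.5-fold, and the median log2 ratio was 0.03. On the TPM scale 11 were higher and 10 lower, and with FPKM or library totals 16 were higher and 5 lower. Ramp2, a co-receptor for adrenomedullin, was at 39.5 and 44.5. Of the 7 that reached a TPM of 10, the fold rule called 0 higher and 3 lower, where it called 10.8% and 18.7% of all genes. These 3 were Gpihbp1, which binds lipoprotein lipase on capillaries, at 53.3 and 22.1, Vcam1, an adhesion molecule, at 70.6 and 15.0, or 4.70-fold lower (4.43 to 4.99), and Tspan18, at 21.7 and 7.83.

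Genes of the cells and matrix around vessels tended to be higher. Of 12 mural cell genes, 10 were higher, against 47.5% of all genes, and 6 lay within 1.5-fold. Their median log2 ratio was 0.31. The pericyte gene Rgs5 was at 19.5 and 36.9 (1.89, 1.79 to 2.003), Anpep at 4.07 and 14.4, Tagln at 15.0 and 63.2 and Acta2 at 49.04 and 52.6. The mural genes Notch3, at 27.0 and 17.5, and Cspg4, at 3.02 and 2.04, were lower. Of 8 genes of the vascular basement membrane, 7 were higher, with a median of 0.41. Nid1 was at 22.3 and 68.2, Col4a1 at 123 and 193, Sparc at 516 and 803, while Sparcl1, also an astrocyte product, was at 549 and 161. Many of these matrix genes are made by other mesenchymal and epithelial cells as well.

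**Figure D4:**
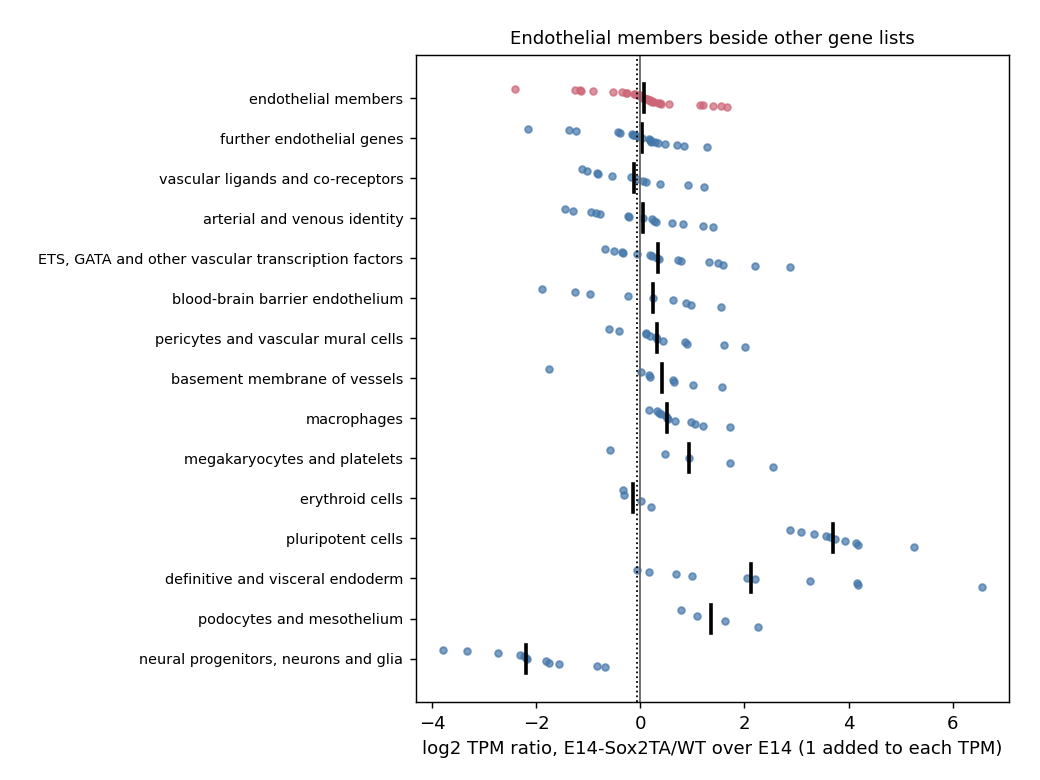
The log2 TPM ratio of each gene, E14-Sox2TA/WT over E14 after adding 1 to both values, for the endothelial members (top row) and 14 other lists, over genes that reached a TPM of 1 in either library. Thick bars are list medians and the dotted line is the median of all genes, -0.06. The endothelial median, 0.08, lies near the dotted line, the pluripotent cell list lies far above it and the neural list, at -2.19, below it.

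The place of a gene in the genome and its length also moved with the ratios. On chromosome 8 the median over genes lay at -0.43 once the median of all genes was subtracted from the log2 ratio. The 3 members on this chromosome were Cdh5, Plvap and Angpt2, at -0.05, -0.19 and -1.09 relative to all genes. Without them the median of the members was 0.13. When genes were split into 10 equal bins of transcript length, as implied by reads and FPKM, the longest bin, over 6889 nt, had a median log2 ratio of -0.56, and the shortest bin, under 891 nt, of 0.39. Among the members with such long transcripts, Ptprb, Vwf and Flt1 stood at 0.22, 0.08 and 0.19 and Prox1 at -1.26. Relative to genes of similar length, the median of the members was 0.26. On that scale Tal1 stood at -0.89 and Angpt2 at -0.97, against -1.15 for each without the correction, Egfl7 at 0.996 against 1.14, and Kdr at -0.03 against -0.36.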

How the data were processed

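RNA was measured in 1 teratoma library per group, E14 and E14-Sox2TA/WT, sequenced on an Illumina instrument. The submitters' processing notes name Trimmomatic, HISAT2 2.1.0 and StringTie 2.1.3b, and the builds mm10 and hg19, without roles. The authors deposited whole-number read counts per gene without normalization. FPKM (reads per length of transcript and depth) and TPM (FPKM brought to a fixed sum) were deposited beside them. The ratio of TPM values was 0.871 times that of FPKM values. Positions came from RefSeq on GRCm38.p6, matched by gene ID for 45675 genes.

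The members and lists were chosen with earlier results of these data known. The fold rule was a TPM ratio above 2 where either library reached 10 TPM. List medians used log2 ratios after adding 1 to both TPM values, over genes that reached 1 TPM in either library. Transcript lengths were those implied by counts and FPKM. Genes named were all members and, in other lists, the 3 with the highest mean TPM and the 2 with the largest log2 ratio. Acvrl1, Angpt1, Apela, Sox18, Sox7, Gja5, Gata1, Klf1 and Gp9 were named, as partners, relatives or defining markers of a member's cells, after their values were seen. So were Notch3 and Cspg4, as the mural genes that were lower, and Pdgfrb, Abcc9 and Kcnj8, as mural genes within 1.5-fold. The neural list and the limit of 1.5-fold were also chosen then. Alternatives covered the pseudocount, the filter, the fold, FPKM, read counts scaled by library total, edgeR TMM factors or median-of-ratios size factors, centring and transcript length. Scripts were tested on simulated data. The software was edgeR 4.0.16 under R 4.3.3, and scipy 1.17.1 and pandas 2.3.3 under Python 3.11.15.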

Additional observations from a re-analysis of the deposited data

How the results depend on the processing

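No paired analysis was possible because each group has a single library, and for the same reason no library could be left out. The alternatives without chromosome 8, and without 10 members also known from other cell types, were chosen after seeing the data. The median log2 ratio of the members, 0.08, was 0.23 with read counts scaled by library total, which moved the median of all genes by 0.18 as well, and 0.26 corrected for transcript length. It was -0.022 over members that reached 10 TPM, a setting that keeps 16 members. The 2 members higher and 2 lower became 0 and 1 at a fold change above 3, 5 and 4 where 1 TPM sufficed, 6 and 4 if no gene was filtered, and 1 and 0 where both libraries had to reach 10 TPM. Without the 10 members also known from other cell types, 2 were higher and 0 lower, since S1pr1 and Prox1 are among the 10. The 10 were Pecam1, Podxl, Cd34, S1pr1, Tal1, Fli1, Sox17, Lyve1, Prox1 and Pdpn. They leave out Aplnr, Ets1, Vwf and Mmrn1, which are also known from mesoderm, blood cells or platelets as given above. The calls that remain are thus not shown to be restricted to endothelium. Over all genes, 1253 higher and 2167 lower became 2109 and 3742 at a fold change above 1.5, 663 and 1015 above 3, 3585 and 3508 where 1 TPM sufficed, 479 and 1122 where both libraries had to reach 10 TPM, and 9156 and 6015 if no gene was filtered. The split of higher against lower also moved with scale, to 1583 and 1655 with FPKM, 1578 and 1634 with library totals, 1348 and 1967 with TMM and 1356 and 1952 with median-of-ratios factors. The other alternatives kept each count within 1.5 times its value. Of 288 alternative values of single members, 192 stayed within the counting interval. The sign changed under at least 1 scale for 4 members, Cd34, Cdh5, Emcn and Icam2, with ratios between 0.909 and 1.03. Counting error limits Lyve1 and Mmrn1 most, and the difference between tumours cannot be read from 1 library per group.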

Other observations

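Genes of the endothelium of the blood-brain barrier, a specialised capillary bed of the nervous system, were read as a further list. Of 10 genes, 9 reached a TPM of 1, 5 of these were higher and 4 lower in the E14-Sox2TA/WT library, and 2 lay within 1.5-fold. The glucose transporter Slc2a1 was at a TPM of 192 and 228, Slc7a5, an amino acid transporter, at 70.8 and 35.8, Spock2 at 68.2 and 17.6, or 3.88-fold lower (3.70 to 4.07), and the forkhead factor Foxq1 at 5.71 and 18.5. Each of these is also transcribed outside vessels. Genes of podocytes and mesothelium, which share Podxl and Pdpn with endothelium, had a summed TPM of 8.36 and 30.3. In that list Nphs1 (nephrin) was at 0.460 and 5.99, Msln at 4.34 and 15.5 and Synpo at 3.30 and 6.38.

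The transcript length implied by reads and FPKM, which reflects the mix of transcripts assigned to a gene, was within 5% between the libraries for 32 of the 36 members. It differed by more for Fli1, at 3530 and 3755 nt, Tal1, at 4694 and 4435 nt, Sox17, at 4279 and 4060 nt, and Mmrn1, at 5610 and 5234 nt from few reads.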
